A study of Drosophila melanogaster with 9 samples.

Results

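This report describes 62 Drosophila melanogaster genes that still carry only a computed-gene symbol (CG followed by digits) and whose transcripts were higher in Malpighian tubules of tumour-bearing flies, both with and without knockdown of the hormone gene ITP. The 62 were chosen from 17611 genes on group means of CPM (read counts scaled by the total count of each library). The mean with the tumour (yki3SA) had to be at least 5 CPM and at least 2 times the control mean, and the mean with the tumour and the ITP knockdown (ITP-i) at least 2 times the control mean and above the yki3SA mean divided by 1.5. Genes annotated to the lysosome, the peroxisome or protein processing in the endoplasmic reticulum were to be left out, which removed 0 of the CG genes. All 3 groups were therefore used to choose the genes, so their levels and ratios are descriptions with no test.

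The study compared polyadenylated RNA of tubules in 3 groups of 3 libraries each. All flies had the driver esg-Gal4, the temperature-sensitive repressor tub-Gal80ts and the marker UAS-GFP, and control flies had nothing else. The yki3SA flies had UAS-Yki-3SA as well, which makes a constitutively active Yorkie, the transcriptional coactivator at the end of the Hippo pathway, and the ITP-i flies had both UAS-Yki-3SA and UAS-ITP-i, an RNAi transgene against ITP. Virgin progeny of every group spent 6 to 8 days at 18 °C and then 8 days at 29 °C, the temperature that releases Gal4 from its repressor, and 80 tubules were taken per genotype. The esg driver is active in progenitor cells of the gut and in stem cells of the tubules, so it can act within the sampled organ. No group carried a neutral RNAi transgene. The titles call the control and yki3SA libraries a re-analysis and not the ITP-i libraries, so that label and the ITP-i genotype cannot be told apart. Nothing says that the libraries of a group came from separate cultures, so the spread between them may be technical.

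Malpighian tubules are the renal organ of the fly. They secrete the primary urine, clear toxins and organic solutes, and express immune genes of their own. ITP, the ion transport peptide, is an antidiuretic hormone that limits fluid loss. A CG symbol marks a gene that was predicted from the genome sequence and has not been given a name for a mutant phenotype or a product. A resemblance to a characterised protein is often the first clue to the role of such a gene.

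Total counts per library were 34640437 to 49338340. The 62 genes together took 2781 to 3326 CPM in control, 7371 to 7971 CPM in yki3SA and 7771 to 8963 CPM in ITP-i. CG33258 alone held most of this, and the other members summed to 712 to 940 CPM in control, 2707 to 3015 CPM in yki3SA and 2865 to 3236 CPM in ITP-i. In bulk tissue, more cells of a type and more RNA per cell cannot be told apart. ITP was at 28.8, 31.8 and 41.1 CPM in the control libraries, 60.2, 84.2 and 86.2 CPM with yki3SA and 48.6, 60.9 and 62.4 CPM with ITP-i, which measures the tubule as a whole and not the esg-expressing cells in which the RNAi was driven.

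Across the 62 genes, the median ratio of the yki3SA mean to the control mean was 3.31 and ran from 2.01 to 24.1. The ratio of the ITP-i mean to the control mean had a median of 3.57 and ran from 2.06 to 40.9. It was over 4 in 26 genes and over 10 in 9 genes, while the yki3SA ratio was over 4 in 23 and over 10 in 5. The ITP-i mean divided by the yki3SA mean had a median of 1.04 and ran from 0.669 to 8.45, and the 2 tumour groups were within 1.25 times of each other in 29 genes. In 35 members the libraries of the tumour groups overlapped, and 11 had an ITP-i mean at least 1.5 times the yki3SA mean.

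All 3 yki3SA libraries were above all 3 control libraries in 60 of the 62 genes, against 52.8% of the 6940 genes with a yki3SA mean of at least 5 CPM. All 3 ITP-i libraries were above the control libraries in 61 members, against 22.5% of those 6940 genes. The exceptions were CG10352, in which yki3SA overlapped control, and CG1273, in which both tumour groups did. Since the rule asked for raised means, nothing is read from these counts. Between the tumour groups the ITP-i libraries all lay above the yki3SA libraries in 13 members (10.4% of the 6940 genes), all lay below in 14 (43.8%) and overlapped in 35.

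**Figure D1:**
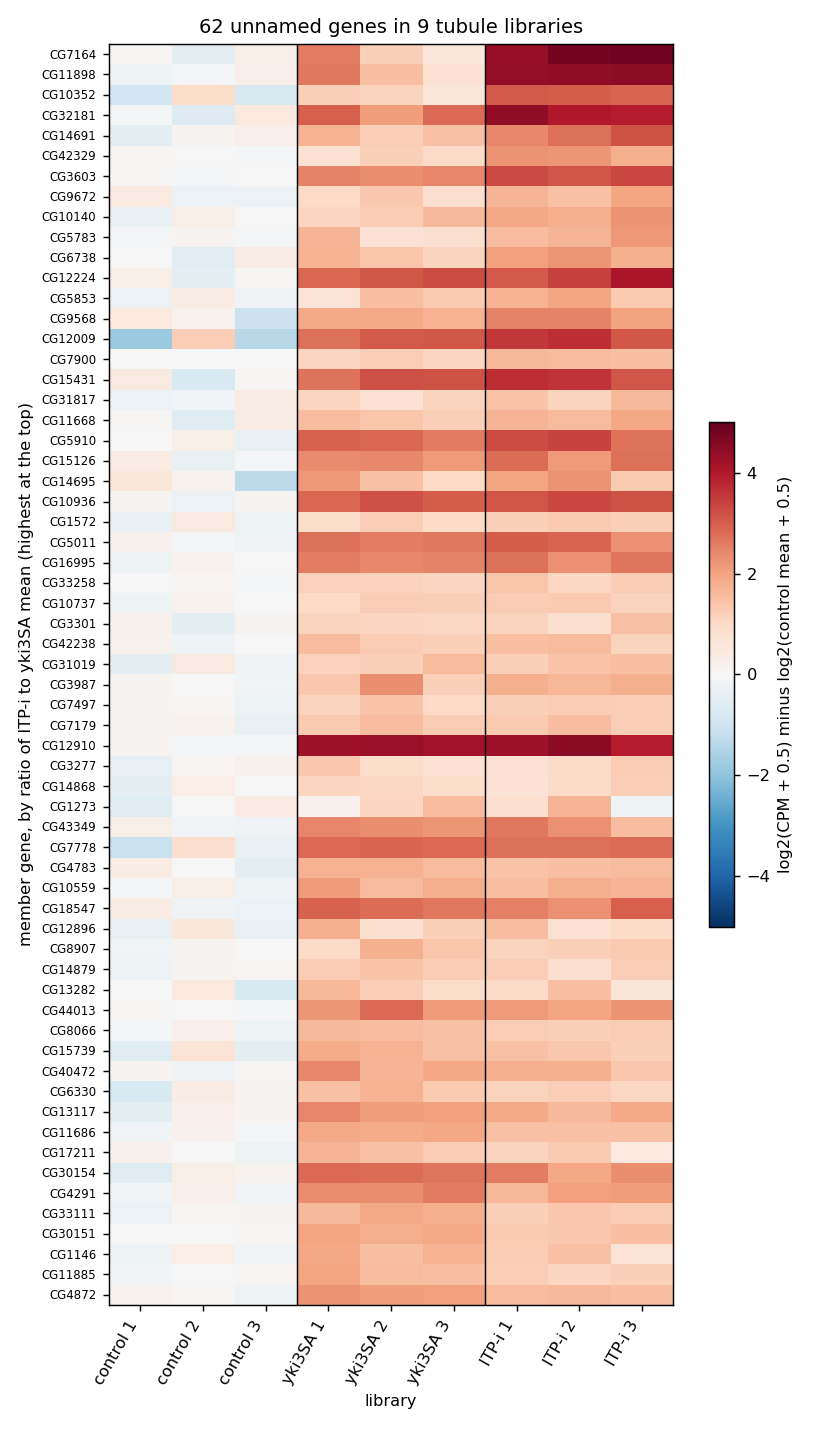
Level of each of the 62 genes (vertical axis, ordered by the ratio of the ITP-i mean to the yki3SA mean) in the 9 libraries (horizontal axis), as log2(CPM + 0.5) minus log2 of the control mean + 0.5. Red is above and blue below the control mean, black lines part the groups, and the top rows, from CG7164 to CG3603, are darker in ITP-i than in yki3SA while most others look alike in both.

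With edgeR's quasi-likelihood test across 10253 genes, 58 of the 62 were called higher in yki3SA than in control (Benjamini-Hochberg adjusted p under 0.05), where 16.2% of all genes tested were called higher. Against control, ITP-i was called higher in 58, where 6.37% of all genes were. CG1273, CG13282 and CG14695 were called in neither, CG10352 was not called in yki3SA, and CG12896 was not called in ITP-i. The members' median log2 fold changes were 1.45 and 1.75, beside 0.07 and 0.00 over all genes tested. Both comparisons share the control libraries and were used by the rule, so they support nothing further.

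ITP-i was called higher than yki3SA in 9 members, where 10.6% of all genes tested were called higher, and lower in 0 members, where 10.1% were. At an unadjusted p under 0.05, 17 were higher and 3 lower, and DESeq2 called 13 higher and 0 lower. The median log2 fold change of the members was 0.25, beside -0.04 over all genes tested. The rule bounded this ratio from below, and the count of members called higher is close to the background share. The direction of this comparison moves with the scaling of the libraries. On CPM of total counts the ITP-i mean was above the yki3SA mean in 33 members, and on TMM-scaled CPM (edgeR's trimmed-mean factors) in 42. Total-count scaling set the median of all genes at -0.24 and called 5 members lower (CG11686, CG11885, CG30151, CG33111 and CG4872), and a block for the replicate number called CG4872 alone lower. The ratios to control stayed above 1 in all 62 members under total-count, TMM, DESeq2-type and upper-quartile scaling. The rule had asked for 2-fold ratios on total counts, so nothing is read from that. The rule itself was no longer met by 16 members with TMM, 17 with DESeq2-type and 21 with upper-quartile scaling.

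**Figure D2:**
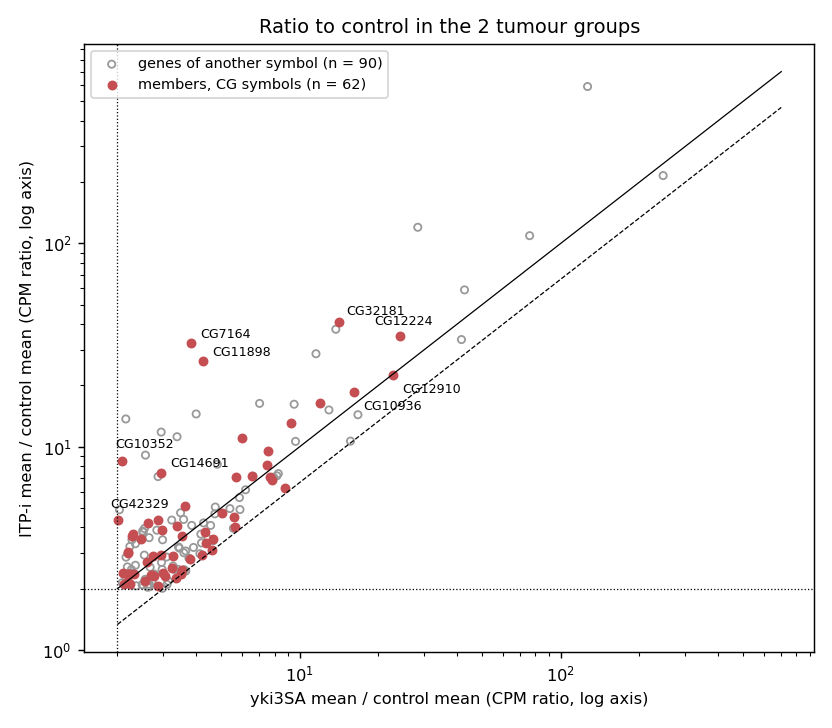
Ratio of the ITP-i mean to the control mean (vertical, log axis) against the ratio of the yki3SA mean to the control mean (horizontal, log axis), in CPM, for the 62 members (filled) and the 90 genes of another symbol that meet the same thresholds (open). The solid line marks equal ratios, the dashed line an ITP-i mean 1.5 times lower than yki3SA, and the dotted lines the 2-fold threshold; CG7164, CG11898, CG10352 and CG14691 lie well above the solid line.

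Among members that resemble an enzyme is a pair of phosphatase-like genes. In the deposited annotation CG15739 matched NagD, a ribonucleotide monophosphatase of Escherichia coli, and CG10352 matched phosphoglycolate phosphatase 2 of Arabidopsis. They are immediate neighbours on opposite strands, and their exons overlap by 41 bases in the reference annotation. CG15739 was at 30.7, 75.4 and 34.3 CPM in the control libraries, 169.7, 156 and 129.9 CPM with yki3SA and 128, 119 and 109 CPM with ITP-i. Both tumour groups were above every control library, and ITP-i was below yki3SA. CG10352 was at 3.17, 12.9 and 3.55 CPM in the control libraries, 15.7, 14.9 and 10.4 CPM with yki3SA and 57.9, 56.8 and 52.4 CPM with ITP-i. Its control library 2 was inside the yki3SA range, and its ITP-i libraries stood apart from all others at 4.07 times the yki3SA mean. On CPM of total counts the neighbours thus had opposite orders of the tumour groups. In the edgeR fit CG10352 was called higher in ITP-i than in yki3SA. CG15739 was not called lower there (log2 fold change -0.16, SE 0.29). In both genes control library 2 was the highest of its group, and without it the yki3SA call of CG10352, absent with all libraries, was made.

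Among the oxidoreductase-like members, CG18547 and CG12224 are also neighbours, on the same strand, and matched E. coli YajO and L-galactose dehydrogenase of Arabidopsis, both of the aldo-keto reductase family. CG18547 was at 5.03, 3.24 and 2.94 CPM in the control libraries, 32.4, 29.2 and 25.9 CPM with yki3SA and 23.5, 20.3 and 32.9 CPM with ITP-i. CG12224 was near the floor in control, at 0.415, 0.0255 and 0.277 CPM (the lowest being 1 count), and reached 4.91, 5.90 and 6.53 CPM with yki3SA and 5.69, 7.32 and 12.2 CPM with ITP-i. In both genes the tumour groups overlapped each other and lay far above control. CG3603, which matched mouse estradiol 17-beta-dehydrogenase 8, was at 3.15, 2.86 and 2.99 CPM in the control libraries, 18.8, 16.9 and 18.4 CPM with yki3SA and 33.9, 30.5 and 34.9 CPM with ITP-i. Its libraries hardly varied within a group, and the 3 groups did not overlap (log2 fold change of ITP-i against yki3SA 1.07, SE 0.13, n = 3 per group). CG3301, matched to a mosquito farnesol dehydrogenase, was lower and flatter, with means of 4.43 ± 1.11, 9.87 ± 0.285 and 10.5 ± 2.45 CPM (SD, n = 3) for control, yki3SA and ITP-i in that order. CG12896, matched to peroxiredoxin-6 of chicken, a peroxide-reducing enzyme, was at 2.45, 5.10 and 2.55 CPM in the control libraries, 12.7, 6.31 and 8.31 CPM with yki3SA and 10.8, 5.98 and 6.93 CPM with ITP-i. Its lowest tumour libraries were only slightly above control library 2.

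Other enzyme-like members had best matches that act on amides, esters, acyl groups, peptides or nucleosides. CG7900, matched to a zebrafish fatty-acid amide hydrolase, was at 44.3, 45.7 and 43.4 CPM in the control libraries, 93.6, 106 and 93.5 CPM with yki3SA and 139.7, 135 and 128 CPM with ITP-i. Its groups stood in the order control, yki3SA, ITP-i, with no overlap. CG42329, matched to a mouse O-acyltransferase-like protein, was at 24.2, 22.8 and 21.5 CPM in the control libraries, 39.6, 52.8 and 45.0 CPM with yki3SA and 109, 106 and 82.4 CPM with ITP-i, again with no overlap. Its ratio of yki3SA to control, 2.01, was the lowest of all members. CG6330, matched to human uridine phosphorylase 2, an enzyme of pyrimidine salvage, was at 3.11, 7.47 and 6.29 CPM in the control libraries, 16.6, 20.1 and 14.5 CPM with yki3SA and 12.8, 14.04 and 11.96 CPM with ITP-i. Here ITP-i lay below yki3SA and above control in every library on CPM of total counts. In the edgeR fit CG6330 was not called lower in ITP-i than in yki3SA (log2 fold change -0.20, SE 0.28). CG6738, matched to human aminoacylase-1, had means of 5.40 ± 1.84, 15.5 ± 3.46 and 23.4 ± 3.63 CPM. CG13282, matched to rabbit pancreatic triacylglycerol lipase, had means of 2.52 ± 1.21, 6.97 ± 1.88 and 5.84 ± 1.97 CPM and was called in neither comparison with control. CG31019, matched to human cytosolic carboxypeptidase 6, had means of 7.64 ± 2.72, 19.8 ± 3.51 and 20.6 ± 2.25 CPM. CG40472, which the annotation assigns to NDUFB2, a subunit of mitochondrial complex I, was at 6.04, 4.74 and 5.65 CPM in the control libraries, 30.8, 18.7 and 22.1 CPM with yki3SA and 20.6, 20.02 and 14.6 CPM with ITP-i, the only member annotated to oxidative phosphorylation.

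A further 3 members resemble transporters. CG11898, matched to a multidrug-resistance-associated protein of the fly, an ATP-binding cassette (ABC) exporter, was at 1.75, 1.91 and 2.60 CPM in the control libraries, 15.8, 6.92 and 3.91 CPM with yki3SA and 53.6, 55.3 and 56.3 CPM with ITP-i. The ITP-i libraries agreed closely, at 55.0 ± 1.38 CPM, while the yki3SA libraries spread from 15.8 CPM in library 1 to 3.91 CPM in library 3, near control. CG14691, matched to mouse solute carrier family 22 member 13, of a family that moves organic ions, was at 5.84, 8.95 and 9.81 CPM in the control libraries, 28.4, 20.2 and 23.7 CPM with yki3SA and 45.6, 58.2 and 79.4 CPM with ITP-i. None of its groups overlapped (log2 fold change of ITP-i against yki3SA 1.52, SE 0.23). CG5853, matched to the human ABC transporter ABCG4, had means of 3.94 ± 1.17, 9.72 ± 2.76 and 13.8 ± 3.26 CPM, with the tumour groups overlapping. In the reference annotation 70.6% of its exonic bases lie opposite exons of CG4619, which stood at 28.9, 33.4 and 25.0 CPM in the 3 groups, and whether the counting used strand is not stated in the sources at hand.

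The next group resembled secreted proteins, proteases or a protease inhibitor. CG9672, matched to a mosquito trypsin, was at 4.11, 2.27 and 2.30 CPM in the control libraries, 6.29, 8.03 and 5.53 CPM with yki3SA and 10.6, 8.91 and 12.7 CPM with ITP-i, and CG11668, matched to mouse enteropeptidase, had means of 2.32 ± 0.900, 6.84 ± 0.948 and 9.004 ± 1.15 CPM. In both protease-like genes the ITP-i libraries lay above the yki3SA libraries, but neither gene was called higher in ITP-i than in yki3SA. CG8066, matched to a fly cystatin-like protein, a family of cysteine protease inhibitors, was at 13.0 ± 2.51, 38.9 ± 1.999 and 31.2 ± 1.07 CPM. Its ITP-i libraries lay below yki3SA on CPM of total counts, but it was not called lower (log2 fold change -0.13, SE 0.15). CG16995, matched to the yeast cell wall protein PRY3, was at 1.18 ± 0.244, 8.87 ± 0.513 and 9.61 ± 1.66 CPM. Of the 62 members, 4 (6.45%) carried the term extracellular space, beside 1.54% of the 2085 CG genes with a yki3SA mean of at least 5 CPM. CG12896, described above, was among them. Extracellular region was carried by 4.84%, beside 3.55%, and peptidase activity by 4 (6.45%), beside 3.60%. Oxidoreductase activity was carried by 5 (8.07%), beside 4.56%. Other terms were rarer in the members, such as nucleus (1.61% beside 12.3%), mitochondrion (1.61% beside 8.44%) and ion binding (14.5% beside 19.2%). These are shares of few genes and were not tested.

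The other matched members had diverse matches. CG3277, matched to the Caenorhabditis elegans fibroblast growth factor receptor egl-15, was at 4.33, 6.43 and 7.04 CPM in the control libraries, 15.7, 11.7 and 10.3 CPM with yki3SA and 10.4, 12.1 and 14.9 CPM with ITP-i. It sat just inside the thresholds, at 2.12 and 2.10 times control. CG8907, matched to a human EPS8-like protein, named as a substrate of the epidermal growth factor receptor kinase, had means of 29.7 ± 2.73, 80.2 ± 23.3 and 69.1 ± 4.59 CPM. CG4291, matched to chicken WBP4, a WW-domain binding protein, had means of 7.59 ± 1.26, 42.9 ± 4.35 and 30.6 ± 4.97 CPM. Its ITP-i libraries lay below yki3SA on CPM of total counts, but it was not called lower (log2 fold change -0.29, SE 0.14). CG14868, matched to the zebrafish coiled-coil protein CCDC149-B, had means of 2.43 ± 0.774, 5.32 ± 0.406 and 5.26 ± 0.996 CPM.

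Most members had no protein match: 24 of the 62 (38.7%) had a best-match protein in the deposited annotation, beside 62.8% of the 2085 CG genes at this level. CG40472, described above, had a KEGG match only. Their coding sequences were also short. The median coding length was 979 bases, beside 1227 bases for the 2085 CG genes and 1452 bases for the 6856 genes of any symbol at this level with a coding length, and 12 members (19.4%) were under 450 bases, beside 9.16% of the CG genes. All 62 are annotated as protein-coding. The rule did not use these features, and they were not tested.

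Per kilobase of exon, the most abundant members were all of this unmatched kind. In ITP-i CG33258 stood at 5424 CPM per kb, followed by CG9568 at 876, CG43349 at 299, CG4783 at 290 and CG13117 at 174 CPM per kb. CG33258 was already abundant in control tubules, at 2184, 2386 and 2069 CPM, and was at 4956, 4861 and 4664 CPM with yki3SA and 5727, 4558 and 5401 CPM with ITP-i. The tumour groups overlapped each other, at 2.18 and 2.36 times control. CG9568 was at 156, 123 and 52.3 CPM in the control libraries, 417, 415 and 366 CPM with yki3SA and 624, 623 and 446 CPM with ITP-i. Its 3 groups did not overlap, though ITP-i was not called higher than yki3SA (log2 fold change 0.70, SE 0.34). CG13117 had the reverse order of tumour groups on CPM of total counts, but was not called lower in ITP-i (log2 fold change -0.21, SE 0.19). It was at 46.9, 76.7 and 70.6 CPM in the control libraries, 349.8, 279 and 273 CPM with yki3SA and 242, 201 and 239 CPM with ITP-i. Among members CG1146 came next after CG13117 by ITP-i mean in CPM, though not per kilobase. Its levels were 52.4, 76.4 and 55.2 CPM in the control libraries, 237, 176 and 203 CPM with yki3SA and 148, 170.2 and 98.3 CPM with ITP-i. CG10737 was at 53.4 ± 7.49, 118 ± 11.01 and 126 ± 7.75 CPM.

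CG43349 and CG5011, both with a coding length under 450 bases (210 and 240 bases), are neighbours on the same strand. CG43349 was at 35.7, 26.3 and 25.4 CPM in the control libraries, 158, 148 and 135 CPM with yki3SA and 182, 144 and 86.1 CPM with ITP-i. CG5011 was at 10.5, 8.64 and 8.04 CPM in the control libraries, 64.3, 55.7 and 58.4 CPM with yki3SA and 77.0, 71.4 and 46.4 CPM with ITP-i. In both, ITP-i library 1 was the highest of all 9 and ITP-i library 3 the lowest of the tumour libraries, so that ITP-i spread on both sides of yki3SA.

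**Figure D3:**
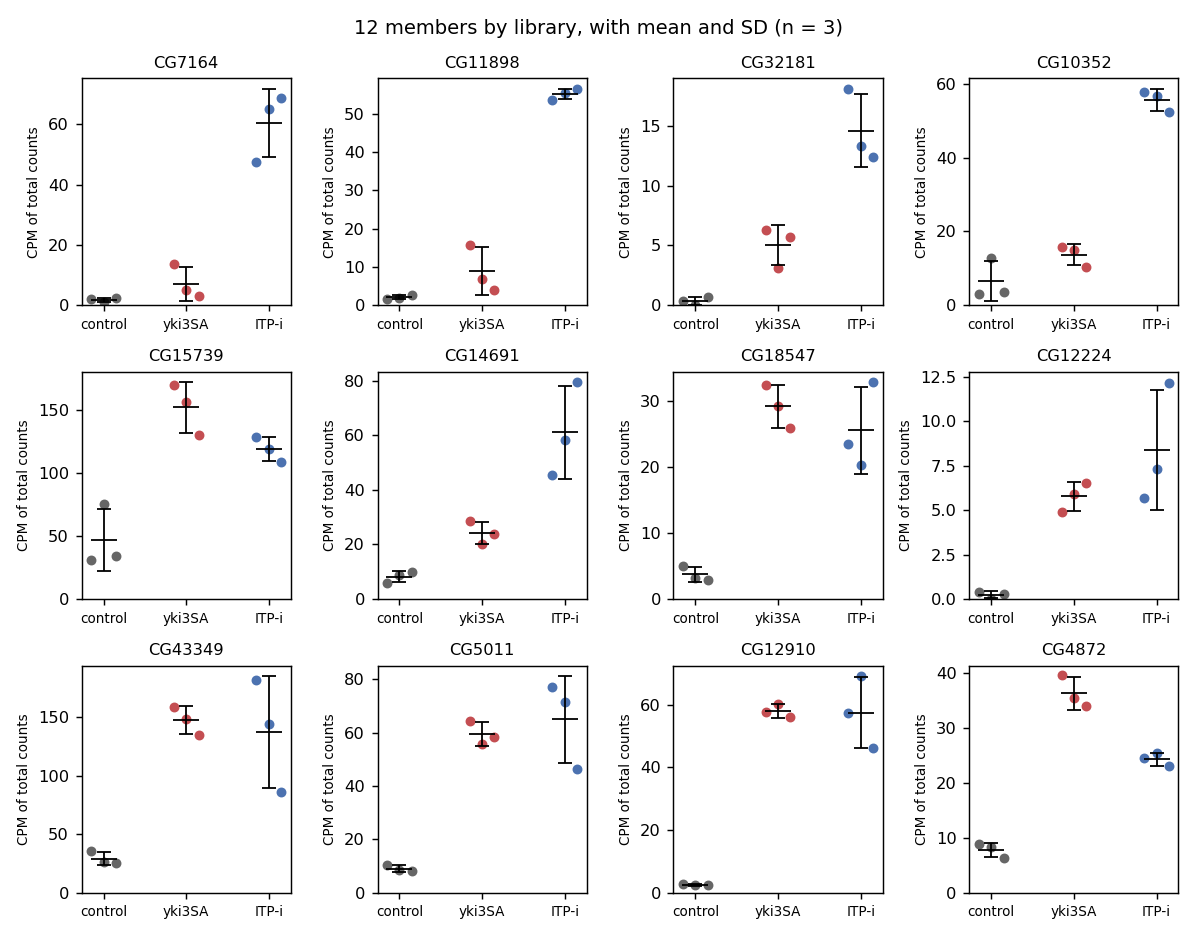
Level in CPM of total counts (vertical axis, from 0) of 12 members in each library of the 3 groups (points), with the mean and SD of 3 libraries (bars). The upper row and CG14691 are highest in ITP-i, whereas the neighbouring pairs CG18547 with CG12224 and CG43349 with CG5011 have overlapping tumour groups and CG4872 is lower in ITP-i.

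Several of the highest ratios to control came from unmatched genes at low levels in control. CG32181 had the highest ratio of ITP-i to control, 40.9, from 0.328, 0.0510 and 0.693 CPM in the control libraries, 6.32, 3.11 and 5.68 CPM with yki3SA and 18.1, 13.4 and 12.4 CPM with ITP-i. The control level rests on few reads, 2 counts in the lowest library. CG12910 was at 2.84, 2.37 and 2.41 CPM in the control libraries, 57.5, 60.3 and 55.9 CPM with yki3SA and 57.2, 68.9 and 46.1 CPM with ITP-i. Its ratios to control, 22.8 and 22.6, were nearly equal, and 3.79% of its exonic bases are shared on the same strand with CAP, which was at 272, 483 and 277 CPM. CG10936 was at 0.547, 0.281 and 0.554 CPM in the control libraries, 6.52, 8.44 and 7.40 CPM with yki3SA and 8.00, 9.25 and 8.34 CPM with ITP-i. CG15431 was at 1.57, 0.408 and 1.11 CPM in the control libraries, 9.67, 13.97 and 13.2 CPM with yki3SA and 19.1, 18.3 and 13.2 CPM with ITP-i. CG5910, higher in control than those, was at 6.32, 7.62 and 4.63 CPM in the control libraries, 51.4, 48.6 and 40.2 CPM with yki3SA and 64.1, 69.8 and 43.4 CPM with ITP-i. In each of these 3 the tumour groups overlapped.

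CG7164 had the highest ratio of ITP-i to yki3SA, 8.45, and no matched protein. It was at 1.99, 1.17 and 2.44 CPM in the control libraries, 13.5, 4.97 and 2.94 CPM with yki3SA and 47.5, 65.1 and 68.6 CPM with ITP-i. Its yki3SA mean of 7.15 ± 5.63 CPM was carried by library 1, and without that library the gene no longer met the rule. The spread over yki3SA libraries had the same order as in CG11898, library 1 above 2 above 3. Together with CG11898, CG10352, CG14691, CG32181 and CG42329, it made up the 6 members with an ITP-i mean at least 2 times the yki3SA mean. The edgeR log2 fold changes of ITP-i against yki3SA were 3.24 (SE 0.53) in CG7164, 2.80 (SE 0.45) in CG11898, 2.21 (SE 0.46) in CG10352, 1.74 (SE 0.53) in CG32181 and 1.32 (SE 0.17) in CG42329. The call of CG32181 ended in 9 alternative fits. For CG10140, the ninth gene called higher, the values were 6.95, 11.1 and 8.73 CPM in the control libraries, 19.4, 21.9 and 28.6 CPM with yki3SA and 35.5, 32.3 and 44.8 CPM with ITP-i.

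At the other end, CG4872 had the lowest ratio of ITP-i to yki3SA, 0.669, at 8.83, 8.31 and 6.43 CPM in the control libraries, 39.6, 35.4 and 33.9 CPM with yki3SA and 24.5, 25.4 and 23.0 CPM with ITP-i. CG11885 was at 4.53, 5.15 and 5.35 CPM in the control libraries, 21.3, 16.2 and 15.2 CPM with yki3SA and 12.6, 10.96 and 11.9 CPM with ITP-i. CG30151 was at 3.02, 2.98 and 3.16 CPM in the control libraries, 13.6, 12.01 and 12.9 CPM with yki3SA and 8.34, 8.64 and 9.70 CPM with ITP-i. CG33111 had means of 12.9 ± 2.07, 45.8 ± 4.58 and 31.9 ± 1.48 CPM. In each of these genes the 3 groups did not overlap on CPM of total counts, with ITP-i between control and yki3SA. The main fit, with TMM scaling, called none of them lower in ITP-i than in yki3SA. The log2 fold changes were -0.39 (SE 0.16) in CG4872, -0.38 (SE 0.19) in CG11885, -0.34 (SE 0.15) in CG30151 and -0.32 (SE 0.13) in CG33111. CG33111 shares 26.7% of its exonic bases on the same strand with eIF4G2, which was at 76.2, 78.2 and 78.4 CPM. How the counting treated reads on the shared bases is not stated in the sources at hand. Of the 62 members, 46 share no exonic base with another gene.

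The thresholds cut through a continuum. CG31817 and CG32181, each with a yki3SA mean of 5.03 CPM, were just inside, and CG34236 at 4.97 and CG42808 at 4.89 CPM were just outside. For the ratio of yki3SA to control, CG42329 at 2.01 and CG10352 at 2.09 were inside and CG34212 at 1.92 and CG13482 at 1.85 outside. For ITP-i to control, CG17211 at 2.06 and CG3277 at 2.10 were inside and CG9107 at 1.95 and CG11158 at 1.91 outside. For ITP-i to yki3SA, CG4872 at 0.669 and CG11885 at 0.675 were inside and CG15210 at 0.662 and CG16959 at 0.653 outside. CG17211 itself was at 14.3, 12.4 and 10.4 CPM in the control libraries, 40.8, 35.3 and 30.4 CPM with yki3SA and 27.7, 31.3 and 17.5 CPM with ITP-i.

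The rule was also applied without the libraries of 1 number, and the genes were then read in those. With the libraries numbered 1 held out, 56 CG genes met the rule on the other libraries, and 47 of them were at least 2 times control in both tumour libraries numbered 1. With number 2 held out 41 of 70 were, and with number 3 held out 44 of 62. Of all CG genes with a yki3SA mean of at least 5 CPM in the other libraries, 4.76%, 4.01% and 5.72% were at least 2 times control in both tumour libraries numbered 1, 2 and 3, respectively. The rule was set with all of these libraries known, so the counts are no independent check of it. The whole rule was met in the held-out libraries by 38, 36 and 41 genes, respectively, and 56, 64 and 56 had both tumour libraries above the held-out control. The median ratio of yki3SA to control in the held-out libraries was 4.34, 2.59 and 3.28, and that of ITP-i to control 3.38, 2.91 and 3.31. Number 2 gave the smallest ratios, and its control library was also the highest of the 3 controls in 28 members. With all libraries, 41 members stayed in the set whichever library was left out.

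The same thresholds were met by 93 genes with another symbol, of which 90 remained after the same pathways were left out. CG genes were 40.0% of the 155 genes that met the thresholds and 30.04% of the 6940 genes at this level, and 2.97% of CG genes at this level met them beside 1.92% of the 4855 others. The 90 other genes had median ratios of 3.42 for yki3SA to control, 3.54 for ITP-i to control and 0.947 for ITP-i to yki3SA, near those of the members, while their highest ratio to control, 591, was far above the members' highest. A protein match was listed for 78.9% of them. The term immune system process was carried by 15.6% of the 90 and by 1 of the 62 members, and response to stress by 26.7% of the 90 and 3.23% of the members. Among all 2085 CG genes at this level the shares were 2.40% and 5.18%, near those of the members. Any Gene Ontology term was listed for 37.1% of the members, 78.9% of the 90 and 59.7% of those CG genes, which limits these shares. No test of these differences was made. Among CG genes, 290 met the level and 2-fold thresholds in yki3SA, and 228 of these were not members.

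Besides the 3 pairs of neighbouring members, 5 members lay next to a gene of another symbol that met the thresholds. CG13282 adjoined Nepl9, a neprilysin-like peptidase gene, whose means were 1.14, 145 and 676 CPM from control through yki3SA to ITP-i. CG14691 adjoined TkR86C, a tachykinin-type neuropeptide receptor gene, at 0.505, 6.94 and 19.1 CPM. Of that pair CG14691 alone was called higher in ITP-i than in yki3SA. Their log2 fold changes were alike, at 1.52 (SE 0.23) in CG14691 and 1.62 (SE 0.59) in TkR86C. CG1572 adjoined PGRP-SA, a peptidoglycan recognition gene of the Toll pathway, at 45.9, 204 and 161 CPM, and was itself at 22.8 ± 7.23, 48.0 ± 5.82 and 54.5 ± 2.65 CPM. CG30154 adjoined Bbd, at 59.6, 169 and 231 CPM, while CG30154 was at 1.46 ± 0.592, 12.8 ± 0.810 and 9.18 ± 2.03 CPM. CG7778 adjoined Mur29B, a mucin-related gene, at 139, 671 and 1138 CPM, and was at 8.39 ± 5.90, 64.6 ± 1.84 and 59.8 ± 1.11 CPM. On CPM of total counts the order of the tumour groups within a pair was not always shared. CG13282, CG1572, CG30154 and CG7778, however, were not called either way between the tumour groups. Their log2 fold changes of ITP-i against yki3SA were -0.06 (SE 0.41), 0.38 (SE 0.19), -0.28 (SE 0.29) and 0.08 (SE 0.36), respectively.

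Immune genes of other symbols were also higher in both tumour groups. IMD-type genes, which encode antimicrobial peptides and their regulators, summed to 30.9 to 42.8 CPM in control, 699 to 936 CPM in yki3SA and 527 to 708 CPM in ITP-i. Of 16 tested, 13 rose in yki3SA and 12 in ITP-i against control. STING-regulated genes, an antiviral set, summed to 262 to 366, 694 to 814 and 952 to 1129 CPM, and Srg2, Srg3 and Nazo of 6 tested rose in both comparisons. Between the tumour groups the STING-regulated genes moved apart: ITP-i was called higher than yki3SA in Srg2 (means of 158 and 668 CPM in yki3SA and ITP-i) and lower in Nazo (262 and 31.1 CPM). Of 12 JAK-STAT genes upd3 rose in yki3SA, 0 rose in ITP-i and upd2 fell in both. Of 16 Yorkie and Hippo pathway genes 2 rose in yki3SA and 0 in ITP-i, and 0 fell in either. Of 12 oxidative stress genes 0 rose and 4 fell in yki3SA, and 1 rose and 2 fell in ITP-i.

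Marker genes of the tubule's own cells were abundant in all groups. Principal cell markers were at 21482 to 26359 CPM in control, 21018 to 24092 CPM in yki3SA and 22068 to 24430 CPM in ITP-i, and stellate cell markers at 981 to 1150, 945 to 992 and 857 to 868 CPM. Against control, 3 of 14 principal cell markers were called lower and 2 higher in yki3SA, and 1 lower and 3 higher in ITP-i. Of 7 stellate cell markers, 3 were called lower in yki3SA and 1 in ITP-i, with 0 higher in either. The stellate sums in ITP-i all lay below those in control. Markers of other tissues also moved with the groups. Fat body markers summed to 2844 to 5931, 442 to 874 and 2093 to 3791 CPM, with 9 of 16 lower and 1 higher in yki3SA against control, and gut enterocyte markers to 421 to 1120, 48.3 to 219.8 and 232 to 615 CPM, with 12 of 22 lower and 1 higher. Ovary and early embryo markers summed to 201 to 341, 60.2 to 214 and 109 to 278 CPM, with 10 of 19 lower and 0 higher. No share over all genes is given here for calls lower than control. Nothing is therefore read from such counts, in these or the other gene lists. The sums of these 3 lists were nearer to control in ITP-i than in yki3SA. The members were chosen to be high in both tumour groups, so nothing is read from their levels beside these lists.

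The muscle and enteroendocrine lists had higher sums in both tumour groups, carried by a few genes. Muscle markers summed to 996 to 1066, 1454 to 1470 and 1286 to 1541 CPM, but their median log2 fold change was -0.25 in yki3SA against control, with Tm1, Zasp52 and Mlp84B of 15 higher, and 0.30 in ITP-i, with Tm1 higher. Enteroendocrine markers summed to 52.4 to 68.2, 182 to 202 and 73.9 to 93.9 CPM. In yki3SA much of that was Orcokinin, with means of 12.3, 104.6 and 18.8 CPM. Against control 3 of 8 were higher and CCHa2 lower in each tumour group. Those higher were CCHa1, Orcokinin and ITP in yki3SA, and CCHa1, AstA and ITP in ITP-i. ITP, the target of the RNAi, is thus part of this list, and its levels are given above. Stem and progenitor markers were at 116 to 143, 116 to 455 and 129.9 to 298 CPM, highest in the tumour libraries numbered 3, with 2 of 10 higher in yki3SA. Hemocyte markers were at 268 to 314, 308 to 355 and 289.8 to 327 CPM, with 2 of 12 higher and 5 lower in yki3SA against control (median log2 fold change -0.64) and 0 higher and 1 lower in ITP-i. Nervous system markers were at 30.6 to 41.7, 29.8 to 34.2 and 22.1 to 28.2 CPM, and male germline markers at 3.06 to 3.88, 1.79 to 14.3 and 3.15 to 7.49 CPM. The part of other tissues in the members' levels was not tested. Without both tumour libraries numbered 3, 57 CG genes met the rule, 54 of them members.

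**Figure D4:**
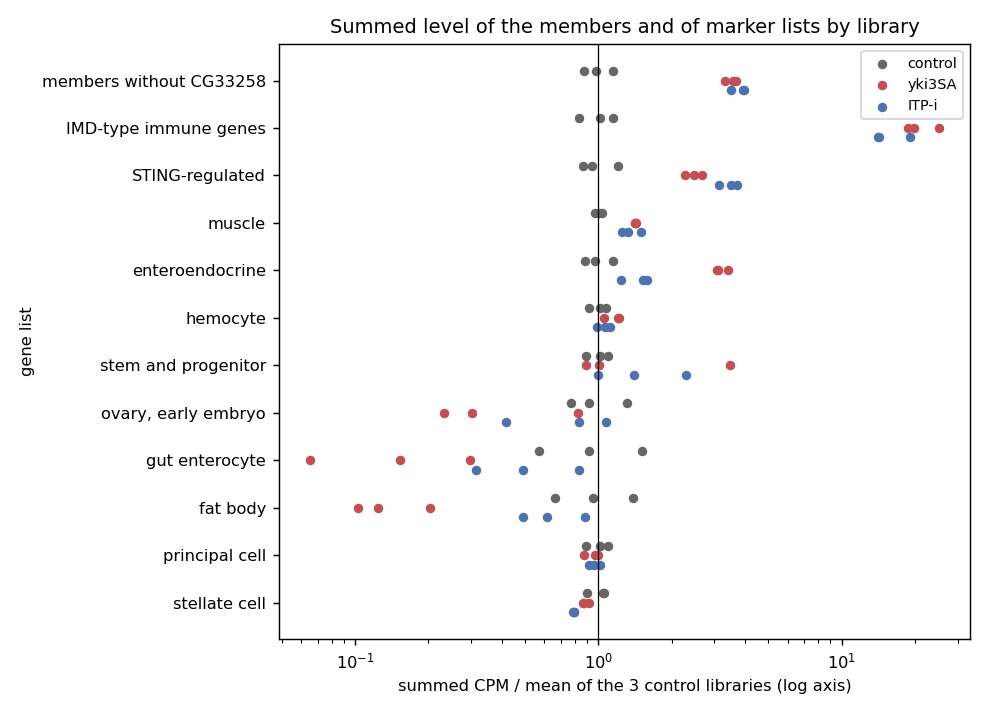
Summed CPM of the members without CG33258 and of gene lists (vertical axis), each divided by its mean over the 3 control libraries (horizontal, log axis), with 1 point per library. The members lie between 3 and 4 times control in both tumour groups, while fat body, gut and ovary markers lie mostly below 1 and principal and stellate cell markers near 1.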

How the data were processed

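The authors deposited raw read counts per gene, 1 column per library, with a table of annotation for each gene (best protein match, KEGG, pathway and Gene Ontology terms). Per the submitters' processing notes, TopHat, Cufflinks, HTSeq and DESeq were used, and no version is given. For the genome build, annotation and strand setting, the sources used here give nothing. Of 17611 identifiers, 17552 were matched to a FlyBase symbol and 59 were not. CPM were computed as the count divided by the library's total of 34640437 to 49338340, and the rule was applied to group means. The members and gene lists were chosen with earlier results of these data known.

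Counts were compared with edgeR 4.0.16 under R 4.3.3 (filterByExpr, TMM factors of 0.879 to 1.21, quasi-likelihood F-test, robust = FALSE) on all 9 libraries with a term for group. Benjamini-Hochberg adjusted p-values were taken over the 10253 genes tested, all 62 members among them, and a gene was called under 0.05. The scripts were tested on simulated data. Alternatives were DESeq2 1.42.0, other scalings and filters, a replicate block, fits without each library and other settings of the rule, all listed under the closing section. Libraries of yki3SA and ITP-i with the same number deviated together (correlations of 0.177, 0.155 and 0.295 across genes, beside -0.214 to 0.094 for other numbers). The labels give no pairing, and the main fit had no term for the number, so it ignored any such pairing. Counts of every pair of libraries of a group differed beyond sampling noise. Tables were made with pandas 2.3.3 and numpy 2.4.6 under Python 3.11.15, and plots with matplotlib 3.10.9.

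Members were named when they were among the 10 highest ratios of ITP-i to control, the 8 highest ITP-i means, or the 5 highest or 5 lowest ratios of ITP-i to yki3SA, just inside a threshold, neighbours of another member, or annotated to a pathway, which gave 32. Members named beyond these, and genes beside them, were chosen after their values were seen. Neighbours, exon overlaps and lengths came from Ensembl release 115 by gene identifier, and its coordinates are not printed because the build of the counts is unknown. Promoter motifs and protein sequences were not analysed here.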

Additional observations from a re-analysis of the deposited data

How the results depend on the processing

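All counts here are descriptions, since the members were chosen on the same libraries. Members called higher numbered 49 to 57 for yki3SA against control, 50 to 59 for ITP-i against control and 8 to 11 for ITP-i against yki3SA when 1 library was left out, and 52 to 60, 58 to 61 and 8 to 13 in the other fits, beside 58, 58 and 9. With the replicate block they were 56, 59 and 11. Members called lower in ITP-i against yki3SA numbered 1 with the replicate block, 5 with total-count scaling and 0 in the other fits, those without 1 library (0 to 0) included. Same-numbered libraries of control and yki3SA correlated at 0.129, -0.044 and 0.055, beside -0.136 to 0.081 for other numbers. Those of control and ITP-i correlated at 0.24, 0.023 and 0.156, beside -0.269 to 0.129. Whether the number also pairs control with the tumour groups was not settled. Of 1632 log2 fold changes of the 32 named members under alternatives, 1602 moved by less than the spread between replicates, 30 by more, and 0 called values changed sign.

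The rule gave 62 genes, 58 to 67 without 1 library, 26 at 3-fold, 128 at 1.5-fold, 116 at a yki3SA mean of at least 1 CPM, 31 at 20 CPM and 33 with ITP-i above yki3SA. TMM and DESeq2-type scaling each gave 51, of which 46 and 45 were members, and upper-quartile factors, added after the data were seen, gave 47 with 41 members. Lost with TMM scaling were CG33258, CG10352, CG10737, CG1273, CG14868, CG1572, CG17211, CG31817, CG32181, CG3277, CG3301, CG42329, CG5783, CG7497, CG7900 and CG9672. Of the 62, 31 were kept without each library and under those 3 scalings. The low control levels of CG12224 and CG32181 (1 and 2 counts in the lowest library) limit their ratios. Promoter motifs, protein features and protein matches between members were not run.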
